A study of Mus musculus with 6 samples.

Results

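Nuclear receptors are transcription factors that most often carry a DNA-binding domain with zinc fingers and a pocket for a small lipophilic ligand, and they change transcription when the ligand shifts their partners from corepressors to coactivators. The adrenal gland makes ligands of this family, namely aldosterone and corticosterone, and it stores the cholesterol from which other ligands derive. The receptors described here are those for oestrogen, progesterone, aldosterone, thyroid hormone, retinoids, vitamin D, fatty acids, oxysterols, bile acids and xenobiotics, with their orphan relatives. The glucocorticoid receptor, the NR4A factors, REV-ERB and RORA are not among them.

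The receptors were chosen by name: 35 genes, of which 33 had at least 1 probe set that the platform's annotation assigns to that gene alone. Together these genes had 82 probe sets, out of 34848 that name a single gene and 44935 in all. The signals of Nr1h2 and Nr2e3 are not analysed here. RNA came from whole adrenal glands of male mice aged 3 months that carry the Per2Brdm1 mutation and are Cry1-/-, on a C57BL6x129Sv background, and all the arrays share this genotype. The labels call these animals deficient in the circadian clock. After 2 weeks in a light-dark cycle the mice were moved to constant darkness, and glands were taken 54 h (3 arrays) or 46 h (3 arrays) after lights off. Arrays are called replicates 1, B and C, and values are listed in that order. The labels tie no array to an animal, so the spread between arrays may be technical in part, and whole-gland RNA cannot tell fewer cells of a type from less RNA per cell. Wild-type glands are not analysed here.

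Markers of the adrenal cortex were above the 40th percentile of signal on every array for 8 of 8 genes, and those of the medulla for 6 of 6. Both X-zone markers lay below it. Array medians were 204 to 217 units. The mean of liver markers on the log2 scale, set against the 46 h mean, was 0.54, 0.97 and 0.69 on the 54 h arrays and 0.17, -0.29 and 0.12 on the 46 h arrays. No probe set of the receptors passed the test between the times. Over all genes 31 of 26961 probe sets, or 0.115%, passed limma at an adjusted p of 0.05, and for the receptors it was 0 of 54, with a lowest adjusted p of 0.327.

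Most of these receptors read DNA through a shared half-site, AGGTCA, alone or in pairs, whereas the receptors for aldosterone and progesterone prefer another one. In RefSeq's table of start sites (GRCm38.p6) 33 of the 35 listed genes matched by symbol, all but Thra and Hnf4g and with Nr1h2 and Nr2e3 included, and they had 52 windows of 250 bases before to 50 after a start. The half-site, on either strand, occurred in 8 of these, or 15.4%, against 16.3% of all 32851 windows. Only Rxra and Nr6a1 had a window with 2 matches, and these are printed 5′ to 3′ on the gene's strand, with the half-site (AGGTCA, or TGACCT where it lies on the other strand) in capitals, to show the sequence the family recognises. In the Rxra window the matches begin 87 and 48 bases before the start, and in the Nr6a1 window 91 and 45 bases. A match is a description of the letters and not a binding site, and the arrays do not tell which start is used.
Rxra, chr2:27709042-27709341, plus strand: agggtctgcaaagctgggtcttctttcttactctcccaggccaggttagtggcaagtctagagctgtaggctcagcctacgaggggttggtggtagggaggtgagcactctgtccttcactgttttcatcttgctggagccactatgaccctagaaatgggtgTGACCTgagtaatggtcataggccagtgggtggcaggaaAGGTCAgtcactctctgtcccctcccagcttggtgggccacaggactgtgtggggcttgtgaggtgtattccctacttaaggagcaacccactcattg
Nr6a1, chr2:38784466-38784765, minus strand: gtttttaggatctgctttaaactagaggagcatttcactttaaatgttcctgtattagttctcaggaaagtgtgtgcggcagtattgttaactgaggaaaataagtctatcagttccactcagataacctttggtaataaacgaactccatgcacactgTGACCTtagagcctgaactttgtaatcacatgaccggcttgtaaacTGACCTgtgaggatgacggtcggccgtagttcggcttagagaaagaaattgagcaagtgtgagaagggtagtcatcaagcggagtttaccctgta

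The first question was which receptors gave a signal in the gland. A probe set was called detected when it exceeded the 40th percentile of its array on all 6 arrays, a boundary of 134 to 147 units. A gene was called detected when any of its probe sets was. By this rule 30 of 33 genes were detected, or 90.9%, against 71.7% of all 18163 genes. Genes with more probe sets have more chances to be detected, and the 33 genes had 82 while the 18163 had 34848. Of the 82 probe sets 48 were detected, or 58.5%, against 54.6% of all 44935 probe sets, which include those that name no gene or several. The deposited table has no detection calls, so transcripts of organs other than the adrenal were read as a gauge of background: 10 of 24 such genes also met the rule, among them the sperm protamine Prm1 and lung surfactant Sftpb. Their mean signals ran from 28.6 to 402 units, apart from the heart factor Tbx20 at 821 units. The brightest probe set exceeded 402 units for 23 of the 33 receptor genes and 821 units for 10. The other 7 detected receptors, Nr3c2, Thrb, Rara, Rarb, Nr1i2, Nr1i3 and Rorb, read within the range of those other-organ transcripts, so their detection at this signal is uncertain. A place among the 23 rests on the brightest probe set alone and is not secure for all of them. Pgr, at 406 units, lay just above the bound. No other probe set of Pgr, Esrra, Esrrb, Esrrg, Rarg, Ppard or Nr5a2 was detected, and those of Hnf4a averaged 34.6 to 273 units. Esr2, Hnf4g and Nr2e1 were not detected. Signals of different probe sets depend on their sequences and are not compared here as amounts of RNA.

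**Figure D1:**
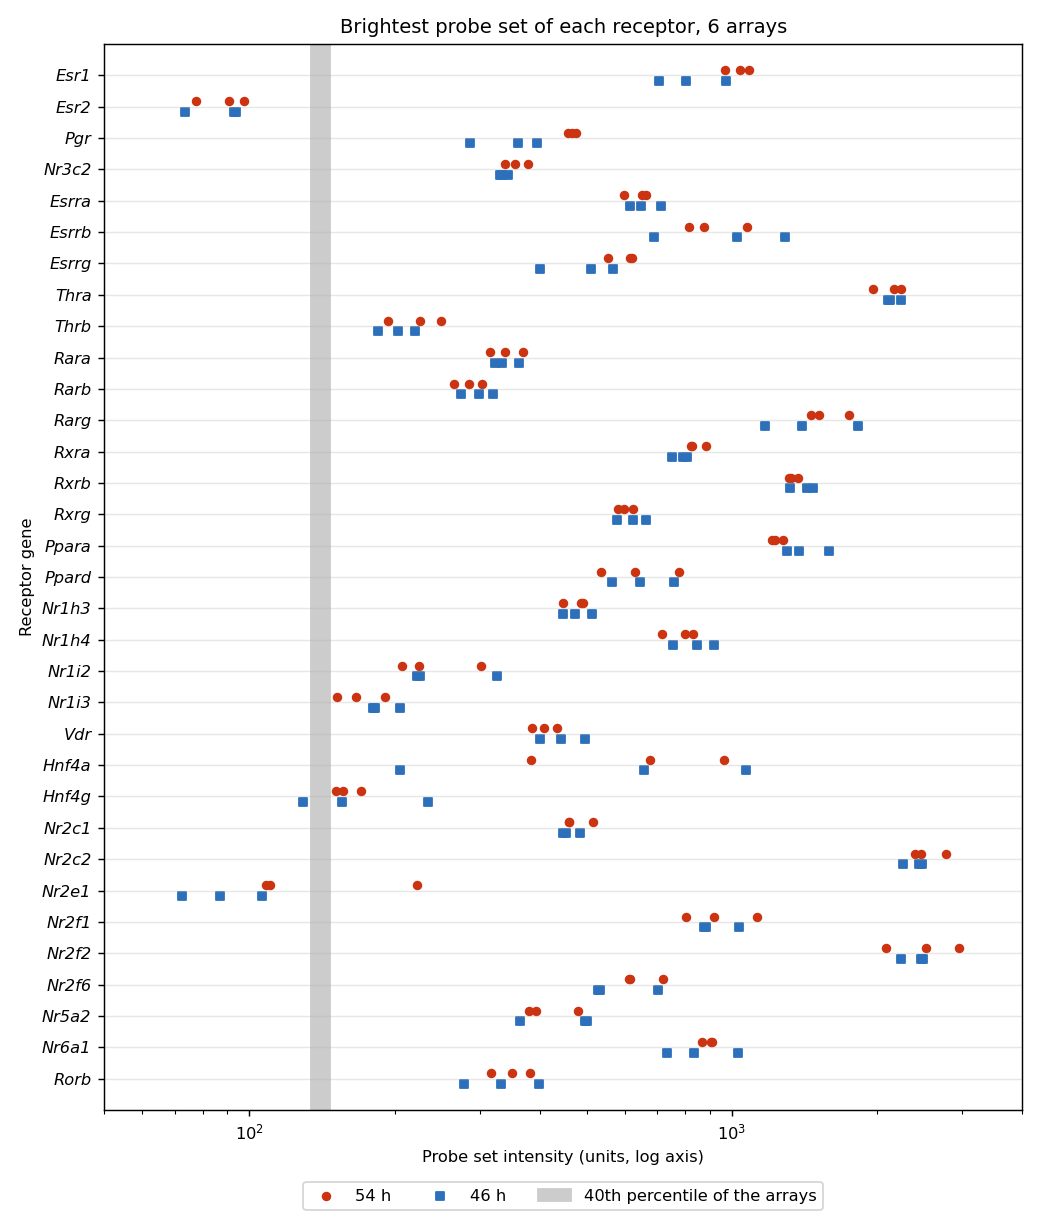
Intensity of the brightest probe set of each of the 33 receptor genes on a log axis, with 54 h arrays (circles) above 46 h arrays (squares) and the 40th percentile of the 6 arrays as a grey band from 134 to 147 units. All arrays lie right of the band for 30 genes, while Esr2 lies left of it, Nr2e1 and Hnf4g straddle it, and the widest spread is that of Hnf4a.

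Several probe sets measured the same gene in 22 cases, and they often differed in whether they gave a signal. All were detected for Thra, Ppara, Vdr and Nr2f6, and none for Hnf4g and Nr2e1. For the other 16 genes some probe sets were detected and others were not. As means over 6 arrays, the brightest and the dimmest read 2458 and 7.85 units for Nr2f2 and 2468 and 17.3 units for Nr2c2, where the dimmest exceeded the 40th percentile on 0 arrays, and 428 and 326 units for Vdr. Which exon or transcript form each probe set reads was not examined. Among the 12 genes with at least 2 probe sets in the test, the change between the times had the same sign in all of them for 4 (Esr1, Thra, Vdr and Hnf4a) and mixed signs for 8 (Rxra, Ppara, Nr2c1, Nr2c2, Nr2f2, Nr2f6, Nr5a2 and Nr6a1).

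**Figure D2:**
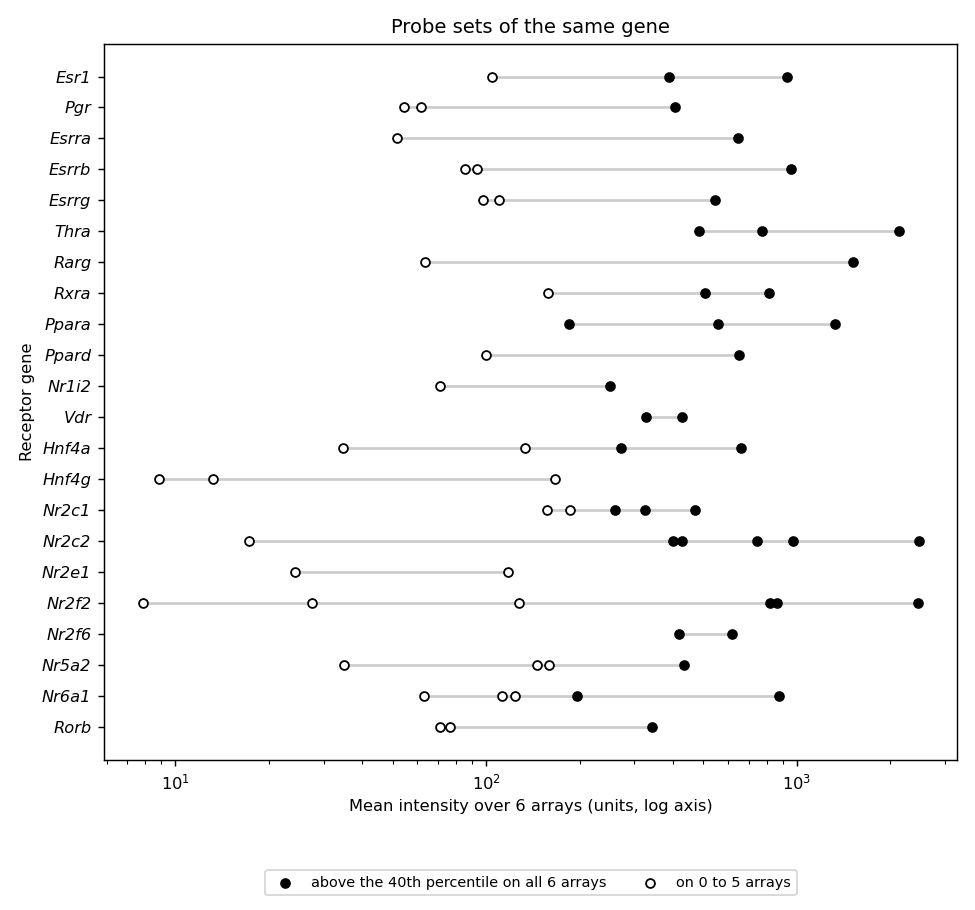
Mean intensity over 6 arrays, on a log axis, of every probe set of the 22 receptor genes that have several; filled points exceeded the 40th percentile on all 6 arrays and open points on 0 to 5. Filled points alone appear for Thra, Ppara, Vdr and Nr2f6 and open points alone for Hnf4g and Nr2e1.

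The second question was whether receptor signals differed between 54 h and 46 h, 8 h apart. Of the 82 probe sets 54 passed the filter on dim signals, which kept probe sets whose mean lay above the 40th percentile, and 28 did not. At the edge, Nr5a2 with a mean of 146 units was kept and Hnf4a with 133 units on another of its probe sets was left out. Changes are given as log2(intensity + 16) at 54 h minus 46 h, which understates changes of dim probe sets. At an unadjusted p of 0.05 limma gave 3 receptor probe sets as higher at 54 h, against 4.34% of all tested, and 1 as lower, against 5.75%. Over all probe sets these shares are 1170 higher and 1549 lower, which became 1727 and 1209 with arrays centred on their medians and 1590 and 1529 with quantile normalization. For the receptors the 3 higher and 1 lower became 4 and 0 with centred medians and 4 and 1 with quantile normalization. The values of the times did not overlap for 3 receptor probe sets in the higher direction, against 6.48% of all tested, and for 4 in the lower direction, against 9.05%. The median change of the 54 was -0.02, as was that over all probe sets, and the median size of the change was 0.10 in both. For 48 of the 54, or 88.9%, the 95% interval lay within a 1.5-fold change either way, against 87.2% of all tested. Within a 2-fold change lay 53 of the 54, or 98.1%, against 98.4% of all tested. The 6 outside the 1.5-fold bounds were 1 probe set each of Esr1, Pgr, Esrrg, Rxra, Hnf4a and Nr2c1.

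**Figure D3:**
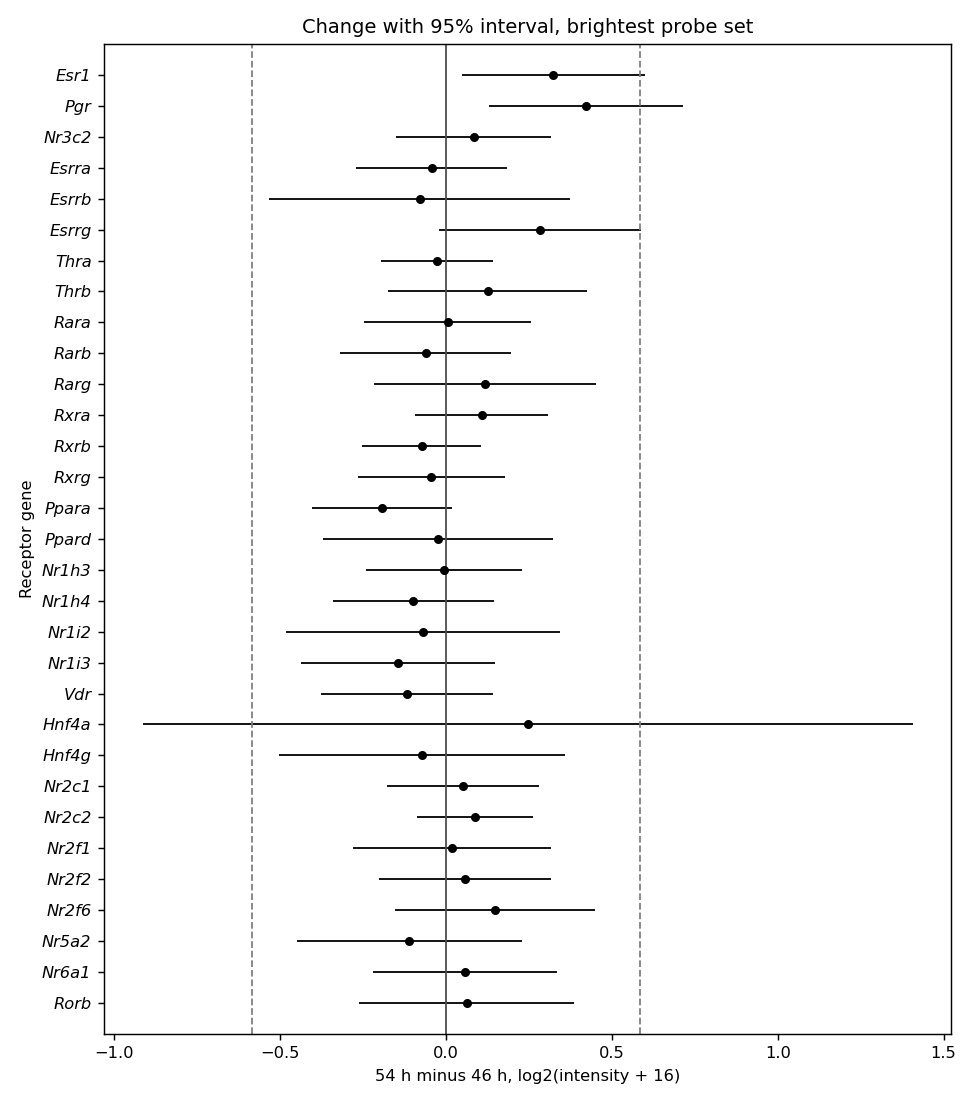
Change between 54 h and 46 h on the log2(intensity + 16) scale for the brightest probe set of the 31 receptor genes in the test; points are limma estimates, bars are 95% intervals and dashed lines mark a 1.5-fold change either way. The intervals of Pgr and Esr1 lie above 0, and that of Hnf4a, from -0.91 to 1.41, is the widest.

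Of the 4 steroid receptors 3 were detected, and of their 4 tested probe sets 0 passed limma after adjustment and 2 were higher at an unadjusted p of 0.05, where 4.34% of all tested were. The progesterone receptor and the oestrogen receptor alpha had the smallest p values of all the receptors when each was read from its brightest probe set. Pgr, which encodes the progesterone receptor and is a classic target of oestrogen receptors, read 475, 457 and 466 units at 54 h and 359.8, 286 and 395 units at 46 h on probe set 1439527_at. All 54 h values lay above all 46 h values and close to each other. The log2 change was 0.42 ± 0.13 SE, with a 95% interval of 0.13 to 0.71 (adjusted p = 0.327 in limma). Its other probe sets were dim: 1421444_at read 49.8, 26.7 and 28.8 units at 54 h and 70.0, 97.3 and 53 units at 46 h, in the opposite direction, and 1455772_at read 81.4, 47 and 102 units at 54 h and 23.8, 58.5 and 57 units at 46 h. Both lay under the filter and were not tested. The difference thus rests on 1 of the 3 probe sets of Pgr.

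Esr1 encodes oestrogen receptor alpha. Its brightest probe set, 1460591_at, read 1087, 1039 and 965 units at 54 h and 802, 707 and 971 units at 46 h, so that the lowest 54 h array lay just under the highest 46 h array. The log2 change was 0.32 ± 0.12 SE (95% interval 0.05 to 0.60, limma adjusted p = 0.427). A second detected probe set, 1435663_at, read 385, 415 and 433 units at 54 h and 379, 313 and 398 units at 46 h, a log2 change of 0.18 ± 0.12 SE with overlapping groups, and the third, 1421244_at, averaged 105 units, under the filter. With array weights, 1 of 17 alternatives, the brightest probe sets of Pgr and Esr1 passed (adjusted p = 0.0223 for Pgr and 0.0405 for Esr1 in limma); over the alternatives the lowest change was 0.29 for Pgr, without 46h replicate B, and 0.22 for Esr1, also without 46h replicate B. Those weights rest on 46h replicate 1 (2.86) and 54h replicate C (4.26), while the other arrays have 0.372 to 0.630. With them many more of all probe sets passed than without weights.

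The mineralocorticoid receptor Nr3c2, which binds aldosterone, read 339, 377 and 355 units at 54 h and 343, 334 and 331 units at 46 h on its single probe set, a log2 change of 0.08 ± 0.10 SE with overlapping groups. Esr2, oestrogen receptor beta, read 73.4 to 97.6 units and was not detected.

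**Figure D4:**
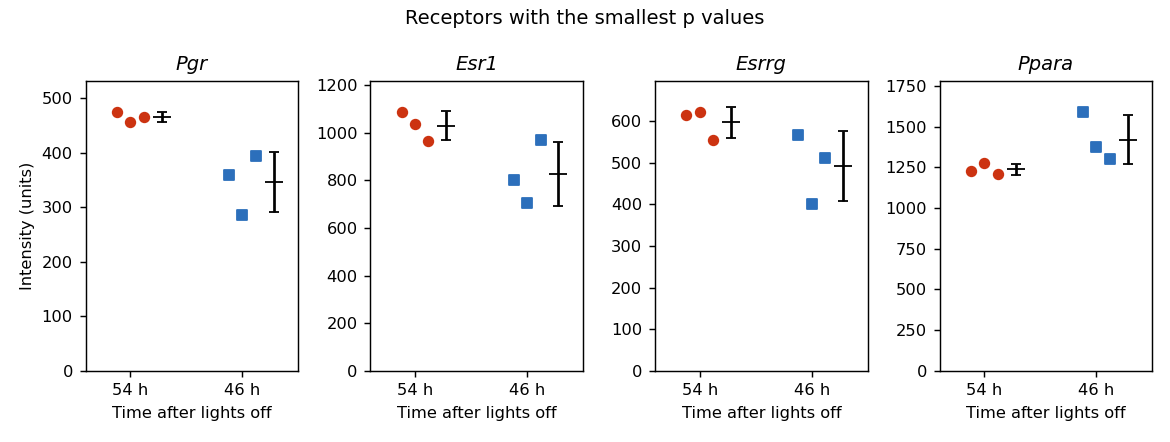
Intensity of the brightest probe set of Pgr, Esr1, Esrrg and Ppara on each array, with 54 h (circles) left of 46 h (squares), axes starting at 0, and the mean with its SD (n = 3) beside each group. The groups do not overlap for Pgr (higher at 54 h) and Ppara (lower at 54 h), and they overlap for Esr1 and Esrrg.

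The oestrogen-related receptors do not bind oestrogen, and Esrra and Esrrg are known to drive mitochondrial genes with the coactivator PGC-1. Esrrg read 615, 621 and 555 units at 54 h and 566, 400.0 and 511 units at 46 h on 1455267_at, with the highest 46 h array above the lowest 54 h array. Its log2 change was 0.28 ± 0.14 SE (95% interval -0.02 to 0.59, limma adjusted p = 0.525). The other Esrrg probe sets averaged 110.0 and 97.9 units, under the filter. Esrra read 652, 597 and 663 units at 54 h and 649, 712 and 613 units at 46 h, a log2 change of -0.04 ± 0.10 SE, and its other probe set averaged 51.8 units. Esrrb, known from pluripotent stem cells, was detected only through 1441921_x_at, which read 877, 817 and 1074 units at 54 h and 1023, 1287 and 690.3 units at 46 h. By the manufacturer's naming, the ending _x_at marks probe sets with probes that may also bind other sequences, and the other Esrrb probe sets averaged 85.6 and 93.3 units, so the presence of Esrrb transcript rests on that probe set alone. Its log2 change was -0.08 ± 0.20 SE.

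Thyroid hormone receptors were read by 4 probe sets, and all were detected. Thra, the receptor alpha, read 2237, 1956 and 2164 units at 54 h and 2130, 2108 and 2235 units at 46 h on 1454675_at, a log2 change of -0.03 ± 0.07 SE with a 95% interval of -0.20 to 0.14. The groups overlapped, and this interval was the narrowest among the receptors' brightest probe sets. A dimmer Thra probe set, 1426997_at, read 471, 462 and 417 units at 54 h and 515, 537 and 505 units at 46 h, lower at 54 h on every array (log2 change -0.20 ± 0.10 SE, limma adjusted p = 0.553). The third read 902, 623 and 739 units at 54 h and 582, 921 and 865 units at 46 h, a log2 change of -0.05 ± 0.19 SE with wide overlap. The Thra locus gives transcripts with different ends, of which one overlaps the clock gene Nr1d1 on the opposite strand, and which ends these probe sets read was not examined. Thrb, the receptor beta, read 194, 226 and 249 units at 54 h and 221, 203 and 184 units at 46 h, a log2 change of 0.13 ± 0.13 SE at a signal near the array median.

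The retinoid X receptors are the common partners with which thyroid hormone, retinoic acid, vitamin D, PPAR, LXR and FXR receptors bind DNA, and all 3 were detected. Rxra read 882, 828 and 823 units at 54 h and 752, 792 and 806 units at 46 h on 1454773_at, with every 54 h array above every 46 h array by a small margin (log2 change 0.11 ± 0.09 SE, limma adjusted p = 0.735). Its second detected probe set, 1425762_a_at, read 500.0, 485 and 631 units at 54 h and 478, 455 and 491 units at 46 h, and there 54h replicate C stood alone above the rest. The third, 1430497_at, had a change of -0.22 ± 0.17 SE in the other direction near the filter. Rxrb read 1314, 1323 and 1371 units at 54 h and 1434, 1319 and 1470 units at 46 h, a log2 change of -0.07 ± 0.08 SE, and had the smallest coefficient of variation over 6 arrays among the tested receptor probe sets, 4.81%. Rxrg, best known from muscle, brain and pituitary, read 578 to 662 units with a log2 change of -0.04 ± 0.10 SE.

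The retinoic acid receptors were all detected as well, though Rara and Rarb read within the range of the other-organ transcripts. Rarg read 1457, 1512 and 1744 units at 54 h and 1400, 1827 and 1172 units at 46 h on 1419415_a_at, a log2 change of 0.12 ± 0.15 SE across a wide spread at 46 h, while its second probe set, with the same source transcript in the annotation, averaged 63.8 units. Rara read 316 to 369.6 units (log2 change 0.01 ± 0.11 SE), and Rarb, itself a classic target of retinoic acid, read 265 to 319 units (log2 change -0.06 ± 0.12 SE). Each of these last genes has 1 probe set, with overlapping groups.

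All 7 measured sensors of lipids, bile acids, xenobiotics and vitamin D were detected, and of their 10 tested probe sets 0 passed limma, also at an unadjusted p of 0.05. Ppara, which drives fatty acid oxidation in liver, read 1227, 1275 and 1209 units at 54 h and 1590, 1374 and 1299 units at 46 h on 1457721_at. All 54 h arrays lay below all 46 h arrays, and 46h replicate 1 stood above the others. The log2 change was -0.19 ± 0.09 SE (95% interval -0.40 to 0.02, limma adjusted p = 0.532). It passed with array weights, which rest on 46h replicate 1 (2.86) and 54h replicate C (4.26). There the change of Ppara was -0.32 (adjusted p = 0.0212 in limma), and many more of all probe sets passed than without weights. Of its other detected probe sets, 1449051_at had the opposite sign and 1439675_at was near 0: 1449051_at read 607, 559 and 598 units at 54 h and 542, 452 and 579 units at 46 h with a log2 change of 0.17 ± 0.12 SE, and 1439675_at had -0.01 ± 0.13 SE. With the mean over all 3 detected probe sets the change of Ppara was -0.01. Ppard, a relative found in most tissues, read 536, 777 and 629 units at 54 h and 644, 564 and 758 units at 46 h, a log2 change of -0.02 ± 0.15 SE, and its second probe set averaged 99.8 units. Nr1h3, the oxysterol sensor LXR alpha, read 446 to 512 units with a log2 change of -0.01 ± 0.10 SE and a 95% interval of -0.24 to 0.23.

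The bile acid receptor FXR, the gene Nr1h4, read 716, 799 and 832 units at 54 h and 846, 918 and 755 units at 46 h, a log2 change of -0.10 ± 0.11 SE. The groups overlapped, and the mean lay above those of all the other-organ transcripts but Tbx20. The xenobiotic receptors PXR and CAR read much nearer to background. Nr1i2 (PXR) read 207, 225 and 302 units at 54 h and 223, 326 and 226 units at 46 h on its brighter probe set and averaged 71.2 units on the other. Nr1i3 (CAR) read 166, 191 and 152 units at 54 h and 182, 179.9 and 205 units at 46 h. Their log2 changes were -0.07 ± 0.18 SE and -0.15 ± 0.13 SE. The vitamin D receptor Vdr was detected on both of its probe sets: 1418175_at read 407, 386 and 434 units at 54 h and 442, 401 and 497 units at 46 h and 1418176_at read 344, 298 and 271 units at 54 h and 348, 265 and 433 units at 46 h. The groups overlapped on both, with log2 changes of -0.12 ± 0.12 SE and -0.17 ± 0.17 SE.

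Hnf4a, Nr1h4, Nr1i2, Nr1i3 and Ppara are receptors known for their work in liver, and liver markers were therefore read beside them. Of 10 liver markers tested, 2 (Serpina1b and Cyp3a11) passed limma as higher and 8 had a change above 0, with a median log2 change of 0.88. The changes below 0 were those of Cyp2e1, at -0.28 ± 0.13 SE, and Tat, at -0.11 ± 0.16 SE. The summed signal of all 12 measured was 17654 to 18548 units over the 54 h arrays and 12219 to 15963 units over the 46 h arrays, and Alb was at 4286 ± 958 units at 54 h and 2177 ± 558 units at 46 h (SD, n = 3 each). Beside this, the changes of Nr1h4, Nr1i2, Nr1i3 and Ppara on their brightest probe sets were -0.19 to -0.07, and that of Hnf4a was 0.25 ± 0.52 SE. A dim Hnf4a probe set, 1427001_s_at, read 181, 145 and 152 units at 54 h and 128, 109 and 82.2 units at 46 h, with every 54 h array above every 46 h array, but lay under the filter. The part of liver RNA in the signals of these receptors was not tested.

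Hnf4a had the largest coefficient of variation among the tested receptor probe sets. Its brightest probe set, 1421983_s_at, read 675, 384 and 962 units at 54 h and 658, 1071 and 205 units at 46 h, which is 50.04% over 6 arrays, against a median of 10.8% over the tested receptor probe sets and 10.4% over all probe sets. The lowest and the highest array both belong to 46 h. Its change of 0.25 became -0.41 without 46h replicate C, 0.74 without 46h replicate B and -0.05 without 54h replicate C. A second detected probe set, 1450447_at, read 263, 281 and 290.5 units at 54 h and 289, 234 and 278 units at 46 h, with a change of 0.06 ± 0.12 SE. Its relative Hnf4g read 151, 156 and 169.9 units at 54 h and 155, 234 and 129 units at 46 h at best and averaged 8.83 and 13.2 units on its other probe sets.

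Of the 11 measured orphan and other receptors 9 were detected, and of their 25 tested probe sets 0 passed limma after adjustment, and at an unadjusted p of 0.05 it gave 1 as higher and 1 as lower, which together are no larger a share than the 4.34% higher and 5.75% lower over all tested. The COUP factors Nr2f1, Nr2f2 and Nr2f6, which often act as repressors, were all detected. Nr2f2, known for expression in the adrenal capsule and stroma, read 2949, 2082 and 2520 units at 54 h and 2492, 2245 and 2459 units at 46 h on 1416158_at, a log2 change of 0.06 ± 0.12 SE. The highest and the lowest array were both from 54 h. It was detected on 2 further probe sets, with changes of -0.14 ± 0.12 SE and 0.09 ± 0.10 SE, and not on the remaining 3. Nr2f1 read 1128, 802 and 919 units at 54 h and 874, 1036 and 884 units at 46 h, a log2 change of 0.02 ± 0.13 SE. Both genes were highest on 54h replicate 1 and lowest on 54h replicate B. The mean of the capsule and stroma markers, a list that also holds Nr2f2, had the same highest and lowest arrays. It was 0.20, -0.23 and -0.002 on the 54 h arrays and 0.03, -0.11 and 0.08 on the 46 h arrays. Among the other markers Tcf21 and Rspo3 had these extremes too, while Gli1, Wt1, Col1a1, Col3a1 and Pdgfra did not. Nr2f6 read 720.4, 616 and 611 units at 54 h and 532, 528 and 703 units at 46 h, a log2 change of 0.15 ± 0.13 SE with overlap.

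The testicular receptors Nr2c1 and Nr2c2, which recognise the same half-site, had 11 probe sets between them, with changes in both directions. Nr2c2 read 2781, 2390 and 2461 units at 54 h and 2262, 2439 and 2473 units at 46 h on 1454851_at, a log2 change of 0.09 ± 0.08 SE. On 1451569_at it read 823, 956 and 908 units at 54 h and 1005, 1039 and 1085 units at 46 h, lower at 54 h on every array (log2 change -0.22 ± 0.09 SE, limma adjusted p = 0.473). On 1425014_at it read 376, 381 and 369 units at 54 h and 423, 434 and 413 units at 46 h, again lower at 54 h on every array (-0.17 ± 0.10 SE), while 1449605_at and 1454167_at had -0.10 and 0.12 with overlap. The 2 that separated the times share 1 source sequence in the annotation, so they are not independent readings of the gene. Nr2c1 read 514, 461 and 460.1 units at 54 h and 453, 484 and 446 units at 46 h on its brightest probe set, a log2 change of 0.05 ± 0.10 SE. Only 1458338_x_at, near the filter and of the kind that may bind other sequences, separated the times, at 258, 178 and 211 units at 54 h and 139, 169 and 165 units at 46 h (0.40 ± 0.15 SE on the log2 scale, adjusted p = 0.43 in limma). The other 3 Nr2c1 probe sets had changes from -0.13 to 0.11.

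Nr5a2, a close relative of the steroidogenic factor Nr5a1, was detected on 1 of 4 probe sets, at 379, 392 and 479 units at 54 h and 496, 502 and 363 units at 46 h (log2 change -0.11 ± 0.15 SE). The germ cell factor Nr6a1 was detected on 2 of 5, the brightest at 909, 865 and 906 units at 54 h and 836, 1029 and 734 units at 46 h (log2 change 0.06 ± 0.12 SE). Rorb, known from brain and retina, was detected on 1 of 3, at 349.7, 317 and 381 units at 54 h and 332, 398 and 279 units at 46 h (log2 change 0.06 ± 0.14 SE). In these genes most probe sets did not exceed the 40th percentile on all 6 arrays, although 2 further ones of Nr5a2 did so on 5 and 3 arrays, and in none of the genes were the groups separated on the brightest. Nr2e1, a factor of neural stem cells, read 110.2, 108 and 223 units at 54 h and 86.8, 106 and 72.3 units at 46 h. Its 54 h values lay above those of 46 h, yet 5 of the 6 arrays were under the 40th percentile and it was not tested.

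Of the 28 receptor probe sets under the filter on dim signals, which were not tested, 5 had every 54 h array above every 46 h array, against 6.59% of all 17974 such probe sets, and 1 had every 54 h array below, against 5.72%. Pgr on 1421444_at was lower on all 54 h arrays, and Nr2e1 on 1457289_at, Rorb on 1439862_at, Hnf4g on 1460127_at, and Hnf4a on 1427000_at and 1427001_s_at were higher. Their changes were -0.81, 0.59, 0.34, 0.22, 0.30 and 0.53 on the log2(intensity + 16) scale, with no test. Rorb on 1439862_at read 84.6, 93 and 67.5 units at 54 h and 56.5, 59.8 and 66.3 units at 46 h, and Hnf4a on 1427000_at read 41, 37 and 41.7 units at 54 h and 29, 29.9 and 29.3 units at 46 h. Mean signals of these 6 lay at 13.2 to 133 units.

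Some receptor probe sets shared an order of arrays that crossed the times. Of the 54 tested, 7, or 13.0%, were highest on 46h replicate B and lowest on 46h replicate C, against 5.24% of all 26961 tested. They are the brightest probe sets of Esrrb, Rarg, Hnf4a, Hnf4g, Nr5a2, Nr6a1 and Rorb. On 46h replicates B and C Esrrb read 1287 and 690 units, Rarg 1827 and 1172 units, and Hnf4a 1071 and 205 units. In 7 probe sets, of which 5 are among those named, 46h replicate B and 54h replicate C were the 2 highest arrays, against 6.57% of all tested; the remaining 2 belong to Esrra and Nr1i2. This order was picked from the values themselves and has no test.

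**Figure D5:**
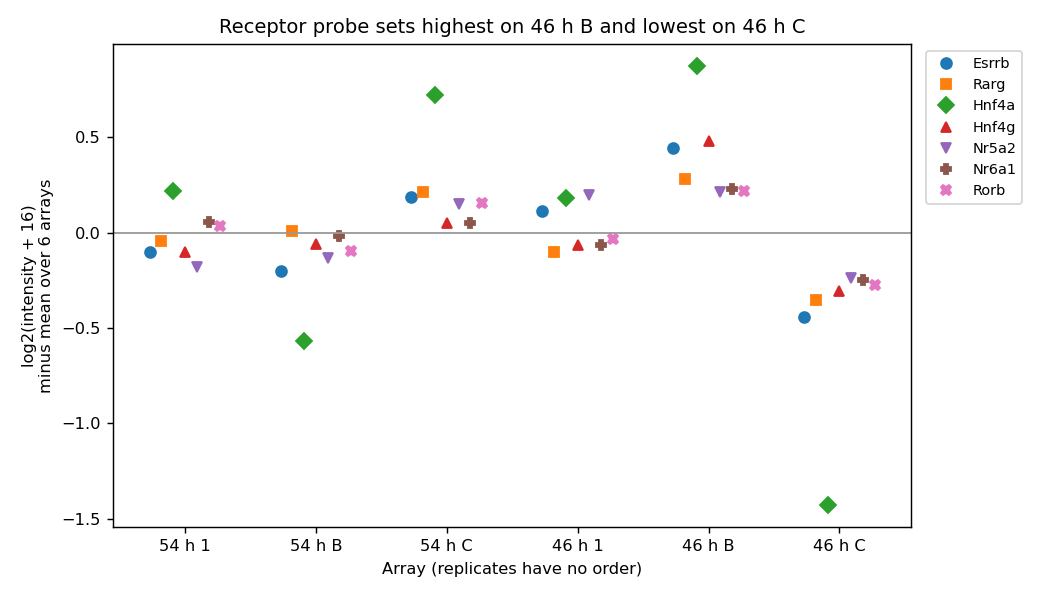
Signal of the 7 probe sets on each array as log2(intensity + 16) minus the mean over 6 arrays, with 54 h arrays left of 46 h arrays and 1 symbol per receptor. All 7 are above 0 on 46h replicate B and below 0 on 46h replicate C by the choice of the probe sets, and all 7 are also above 0 on 54h replicate C.

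Coregulators, ligand enzymes and known targets of the receptors were read from their brightest probe sets. Over all 13780 genes read in this way limma gave 4.11% as higher and 6.2% as lower at an unadjusted p of 0.05, which is the background for the count of each list. Of 25 coactivators and corepressors tested 0 passed limma over all probe sets and 1, Tacc1, reached an unadjusted p of 0.05, lower at 54 h with a log2 change of -0.12 ± 0.05 SE. The median change was -0.02, as was that over all genes read from their brightest probe set. The coactivator Ncoa1 and Lcor, a corepressor that binds ligand-occupied receptors, had changes of 0.23 ± 0.11 SE and 0.30 ± 0.15 SE. Ppargc1b was measured but not tested because of its low signal. Of 12 tested genes of retinoid metabolism 0 passed and 3 reached an unadjusted p of 0.05, all higher, and the median change was 0.06. These were the retinol carrier Rbp4 at 2527 ± 598 units at 54 h and 1650 ± 48 units at 46 h (SD, n = 3 each), which on the log2 scale is 0.58 ± 0.14 SE (adjusted p = 0.204 in limma), and the retinaldehyde dehydrogenases Aldh1a2 (0.24 ± 0.08 SE) and Aldh1a1 (0.09 ± 0.03 SE), which make retinoic acid. Rbp4 is made chiefly by liver and fat. Liver marker values are given above. The mean of adipose markers was 0.44, -0.03 and 0.17 on the 54 h arrays and 0.11, -0.19 and 0.08 on the 46 h arrays. Of the 9 adipose markers 3 (Lep, Ucp1 and Cidea) reached an unadjusted p of 0.05 in limma, higher at 54 h. The change was above 0 for 5 of the 9 and below 0 for 4 (Adipoq, Fabp4, Lpl and Cidec), with a median of 0.10. The part of liver and fat in the change of Rbp4 was not tested. Of 11 tested genes of thyroid hormone, vitamin D and steroid metabolism 0 passed limma after adjustment and at an unadjusted p of 0.05 it gave 1 as higher and 1 as lower, with a median change of 0.02. The thyroxine carrier Ttr, which is also a liver marker, had 1.11 ± 0.18 SE (adjusted p = 0.064 in limma), the thyroid hormone binder Crym -0.26 ± 0.10 SE and the transporter Slc16a10 0.25 ± 0.12 SE.

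Target lists gave 1 gene past the test. Of 12 liver X receptor targets 0 passed limma after adjustment and 1 was lower at an unadjusted p of 0.05, with 3 above 0, 9 below and a median change of -0.02. Apoe, a carrier of cholesterol, was at 7889 ± 560.4 units at 54 h and 9943 ± 536 units at 46 h (SD, n = 3 each), which on the log2 scale is -0.33 ± 0.06 SE (adjusted p = 0.0922 in limma), the phospholipid transfer protein Pltp had 0.28 ± 0.14 SE and the sterol exporter Abca1 -0.20 ± 0.11 SE. Markers of immune cells, which also make Apoe, had a median change of -0.18, and 4 of 8 were lower at an unadjusted p of 0.05; their part was not tested. Of 18 targets of PPARs and oestrogen-related receptors 0 passed, and limma gave 2 as higher and 4 as lower at an unadjusted p of 0.05, with a median change of -0.05. The carnitine palmitoyltransferase Cpt1a was at 4117 ± 15.9 units at 54 h and 5086 ± 233 units at 46 h (SD, n = 3 each), which on the log2 scale is -0.30 ± 0.05 SE (adjusted p = 0.0838 in limma), the acyl-CoA dehydrogenase Acadm had -0.21 ± 0.05 SE and the citrate cycle enzyme subunit Idh3a 0.14 ± 0.05 SE. Of 13 targets of thyroid hormone and retinoic acid receptors 0 passed limma after adjustment and 2 were higher at an unadjusted p of 0.05, with a median change of 0.03. Tgm2 (0.29 ± 0.07 SE), Thrsp (0.16 ± 0.05 SE) and Cyp26b1 (0.21 ± 0.10 SE) had the smallest p values. Of 13 steroid receptor targets 0 passed limma after adjustment and at an unadjusted p of 0.05 it gave 1 as higher and 1 as lower, with a median change of -0.01. Beside Pgr itself the signalling factor Wnt4 (-0.30 ± 0.13 SE) and the sodium channel subunit Scnn1b (0.21 ± 0.12 SE) had the smallest p values. Of 9 targets of FXR, PXR, CAR and the vitamin D receptor 1 passed, the PXR target Cyp3a11, at 668 ± 21.4 units at 54 h and 298 ± 70.7 units at 46 h (SD, n = 3 each) and higher at 54 h by 1.15 ± 0.16 SE on the log2 scale (adjusted p = 0.0424 in limma). The median change of these targets was 0.13. Cyp3a11 is also one of the liver markers; its receptor Nr1i2 had a change of -0.07. The part of liver RNA was not tested. Cyp3a11 did not pass with no filter, without an intensity trend, or without 46h replicate 1, 46h replicate C, 54h replicate B or 54h replicate C, where no gene of the target and pathway lists passed.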

How the data were processed

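Per the labels' protocols, gland RNA was purified on columns and biotin-labelled before hybridisation to Affymetrix arrays. The authors deposited a linear intensity for each probe set on each array. The summary method, background correction and normalization are not given in the sources used here. Array medians of tested probe sets differed by at most 0.0728 on the log2 scale, under the limit of 0.1, so values were used as deposited. Of 45001 rows, 64 controls, 1 without values and 1 with a damaged value were left out. Probe sets were named through the platform annotation; 34644 of 34848 gene IDs matched RefSeq (GRCm38.p6), with 0 symbols changed.

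Values were analysed as log2(intensity + 16) in limma 3.58.1 under R 4.3.3 (lmFit, eBayes with an intensity trend), two-sided, over all 26961 probe sets whose mean exceeded the 40th percentile, with Benjamini-Hochberg adjustment over them. An exact permutation of 3 against 3 cannot go under p = 0.1. A gene was read from its probe set with the highest mean. The fit was tested on simulated data. Python 3.11.15 made tables and plots. The number of arrays limits the precision.

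The members and lists were chosen with earlier results of these data known. All members are named; values per array are given for those with the smallest p values or with probe sets that disagree, and up to 3 genes per list, or those past the test. Alternatives were other scalings, filters, offsets, variance models, array weights, a block for the replicate letter, averaging a gene's detected probe sets, other detection rules, and leaving out each array.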

Additional observations from a re-analysis of the deposited data

How the results depend on the processing

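No receptor probe set passed limma at the settings reported, and this count stayed at 0 in every alternative but array weights, where it was 5 (1 each of Thra, Pgr, Ppara, Nr2c1 and Esr1) and 3466 of all probe sets passed, against 31. The 4 of 54 receptor probe sets at an unadjusted p of 0.05 became 7 of 82 with no filter. They became 17 of 54 with array weights, 2 with the replicate block and 1 to 6 when an array was left out. Over all 44935 probe sets with no filter, 1916 were higher and 2139 lower at this p. Of all 26961 tested, 3715 were higher and 4868 lower with array weights, and 823 and 981 with the replicate block. With an array left out, 657 to 1745 were higher and 758 to 2105 lower. Genes whose tested probe sets shared a sign numbered 4 of 12 and became 7 of 22 with no filter, where all 82 probe sets were tested. They numbered 2 to 5 with an array left out. List genes past the test numbered 1, then 0 with no filter, 2 with the filter at the 60th percentile, 0 without an intensity trend, 22 with array weights, 2 with the replicate block and 0 to 1 with an array left out. All probe sets past the test, 31 as reported, numbered 3 without an intensity trend, 61 with robust eBayes, 47 with quantile normalization, 50 with centred medians and 48 with the filter at the 60th percentile; with 1 array left out they numbered 2 (46h replicate 1), 18 (46h replicate B), 30 (46h replicate C), 65 (54h replicate 1), 61 (54h replicate B) and 2 (54h replicate C). Detected receptors numbered 30 of 33. They numbered 23 with a boundary at the 60th percentile, 33 at the 20th and 31 when 3 of 6 arrays sufficed. The shares of all genes detected were then 53.4%, 85.6% and 76.4%, against 71.7% as reported. Other-organ transcripts detected were then 2, 14 and 12 of 24, against 10. Of 30 detected receptors the sign of the change differed from that reported for 9 without 46h replicate C, 6 without 54h replicate 1 and 0 to 4 in each other alternative; Hnf4a ran from -0.41 to 0.74. The replicate block changed no receptor's call. Same-lettered arrays did not deviate together from their group means (correlations across probe sets of -0.06 for 1, -0.41 for B and -0.49 for C), so the letters were not taken as a pairing; 54h replicate C and 46h replicate B, at 0.46, and 54h replicate B and 46h replicate C, at 0.38, did deviate together. The cause of these differences was not tested. Signals near background limit what can be said of dim receptors.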
